A study of Mus musculus with 3 samples.

Results

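Dmkn, Krtdap and Sbsn are 3 neighbouring genes on mouse chromosome 7, and the measurements below follow their transcripts through the stromal cells of subcutaneous fat. They were 3 of the 32285 genes listed in the count files and were selected by name, because they had already been seen to lead a group of cells in these same libraries. The data are single-cell RNA-seq of the CD31- CD45- stromal vascular fraction (SVF), the non-adipocyte cells of fat after endothelial cells and leukocytes are sorted away, from the subcutaneous inguinal adipose depot of 3 wild-type male C57BL/6J mice aged 8 weeks. No treatment or transgene is labelled, and each mouse gave 1 library (WT replicates 1 to 3), so every comparison is between kinds of cells within the same animals. Cells with more than 500 detected genes and under 5% of UMIs (unique molecular identifiers, each standing for 1 captured transcript) from mitochondrial genes were kept. They were then gated on raw UMIs of 6 marker genes. The progenitor gate (Dpp4 plus Pi16 of at least 3, Icam1 plus Fabp4 of at most 1) held 7399, 3169 and 9273 cells in mice 1, 2 and 3. The preadipocyte gate (Icam1 plus Fabp4 of at least 4, Dpp4 of at most 1) held 2278, 1394 and 1889 cells. The regulatory gate (Clec11a and Fmo2 of at least 1 each, Fabp4 and Dpp4 of at most 1) held 270, 384 and 404 cells.

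Sbsn encodes suprabasin, Dmkn encodes dermokine and Krtdap encodes keratinocyte differentiation-associated protein, all secreted proteins. They are best known from skin, where keratinocytes switch them on together as they leave the basal layer and stratify, and the genes are grouped as a stratified epithelium secreted peptide cluster. Adipose stroma has a separate hierarchy, in which Dpp4+ Pi16+ interstitial progenitors give rise to Icam1+ preadipocytes, while Clec11a+ Fmo2+ regulatory cells (Aregs) restrain adipogenesis in their neighbours.

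All 3 genes lie on the plus strand of chromosome 7 in the GRCm38 build (GENCODE annotation). Sbsn spans chr7:30751471-30756134, Dmkn spans chr7:30763756-30781063 and Krtdap spans chr7:30787896-30791097, with 7621 bases between Sbsn and Dmkn and 6832 bases between Dmkn and Krtdap. Their promoters are shown because the members share so much of their distribution over cells, and because the same 7-letter motif stood close before each start. The RefSeq promoter table (GRCm38.p6) matched all 3 symbols and gave 5 windows, of which 1 repeats the first Dmkn start at an offset of 2 bases. The 250 bases before each of the 4 remaining starts are given here, 5′ to 3′, with matches to TGANTCA in capitals. TGANTCA is a looser form of TGA(G/C)TCA, the consensus of AP-1 (Fos and Jun dimers).
Sbsn, chr7:30751221-30751470, plus strand: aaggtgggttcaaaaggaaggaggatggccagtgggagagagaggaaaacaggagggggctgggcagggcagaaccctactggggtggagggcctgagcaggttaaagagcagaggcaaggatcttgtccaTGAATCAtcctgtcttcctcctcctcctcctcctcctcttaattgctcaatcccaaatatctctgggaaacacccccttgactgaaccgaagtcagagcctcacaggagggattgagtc
Dmkn, first start, chr7:30763506-30763755, plus strand: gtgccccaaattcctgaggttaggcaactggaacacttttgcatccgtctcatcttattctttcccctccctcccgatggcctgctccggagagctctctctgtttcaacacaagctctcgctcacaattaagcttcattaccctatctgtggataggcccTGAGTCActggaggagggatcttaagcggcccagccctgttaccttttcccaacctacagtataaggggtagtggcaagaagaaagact
Dmkn, second start, chr7:30776155-30776404, plus strand: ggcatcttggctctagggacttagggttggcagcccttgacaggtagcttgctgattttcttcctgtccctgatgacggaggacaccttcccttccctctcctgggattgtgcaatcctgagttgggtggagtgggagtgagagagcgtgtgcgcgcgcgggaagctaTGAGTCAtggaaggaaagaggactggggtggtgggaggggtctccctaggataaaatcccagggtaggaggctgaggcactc
Krtdap, chr7:30787655-30787904, plus strand: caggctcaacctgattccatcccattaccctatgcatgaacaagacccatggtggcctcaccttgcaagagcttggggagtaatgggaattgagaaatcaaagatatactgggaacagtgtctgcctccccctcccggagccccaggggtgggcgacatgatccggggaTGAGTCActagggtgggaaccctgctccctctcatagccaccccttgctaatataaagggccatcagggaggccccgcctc
TGANTCA reads nearly the same on both strands and was searched on both. It matched once in each of the 4 windows, at 119 to 113 bases before the start of Sbsn, 89 to 83 and 82 to 76 bases before the Dmkn starts, and 81 to 75 bases before the start of Krtdap. Among the 250-base windows of all genes in the table, 2217 of 32851, or 6.75%, held it. By gene, 2113 of 27025, or 7.82%, held it in at least 1 window. The match in Sbsn read TGAATCA, which is outside the stricter consensus, and the other 3 read TGAGTCA. The TATA-box letters TATAAA were found in 1 of the 4 windows, 30 to 25 bases before the Krtdap start, and in 12.4% of all windows. Neither the GC-box letters GGGCGG nor the TEAD letters GGAATG were in any of the 4 windows, against 32.7% and 12.6% of all windows, and CANNTG, the E-box, was in 1 of 4 against 66.2%. These are letter matches in 1 window per start, and binding was not measured.

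The libraries held 94816520, 78108414 and 99328725 UMIs in kept cells, at medians of 7392.5, 12192.5 and 6667 UMIs a cell, so mouse 2 gave fewer and deeper cells than the other two. Between 52 and 81 cell barcodes were shared by any 2 libraries. Pan-mesenchymal genes such as Col1a1 and Dcn summed to 27710 to 57940 CPM (UMIs of a gene per 1000000 UMIs of the same cells) in every gate and mouse. The summed endothelial and leukocyte markers did not exceed 60.6 and 18.3 CPM. Summed mural, Schwann cell and mesothelial markers reached 112, 100 and 105.9 CPM at most. Stromal RNA was thus present in every gate, but sums of lists of unlike abundance do not measure purity. In cells summed by gate, fewer cells making a transcript and fewer transcripts in each cell cannot be told apart, and for that reason the shares of cells are given separately below.

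In the summed cells, all 3 members were high in progenitors and low in the preadipocyte and regulatory gates, with progenitor levels 25.4 to 235 times those of preadipocytes in single mice. Sbsn was the most abundant member. UMIs of a 3′ library count 1 end of each transcript, so levels are compared between genes without division by length. In the progenitor gate Sbsn stood at 479, 487 and 474 CPM in mice 1, 2 and 3, a mean of 480 ± 6.17 (SD, n = 3), and in the preadipocyte gate at 18.5, 10.3 and 18.6 CPM, a mean of 15.8 ± 4.79. The 2 sets of values lay far apart, and the 3 mice were nearly equal in progenitors. Dmkn stood at 124, 144 and 121 CPM in progenitors (mean 130 ± 12.4) and at 3.59, 1.59 and 4.27 CPM in preadipocytes (mean 3.15 ± 1.40). Krtdap stood at 60.3, 90.2 and 54.0 CPM in progenitors (mean 68.1 ± 19.3) and at 1.41, 0.383 and 1.77 CPM in preadipocytes (mean 1.19 ± 0.720), the last resting on 26, 7 and 24 UMIs. Mouse 2 had the highest progenitor value and the lowest preadipocyte value of every member, and its spread from the other mice was widest for Krtdap.

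**Figure D1:**
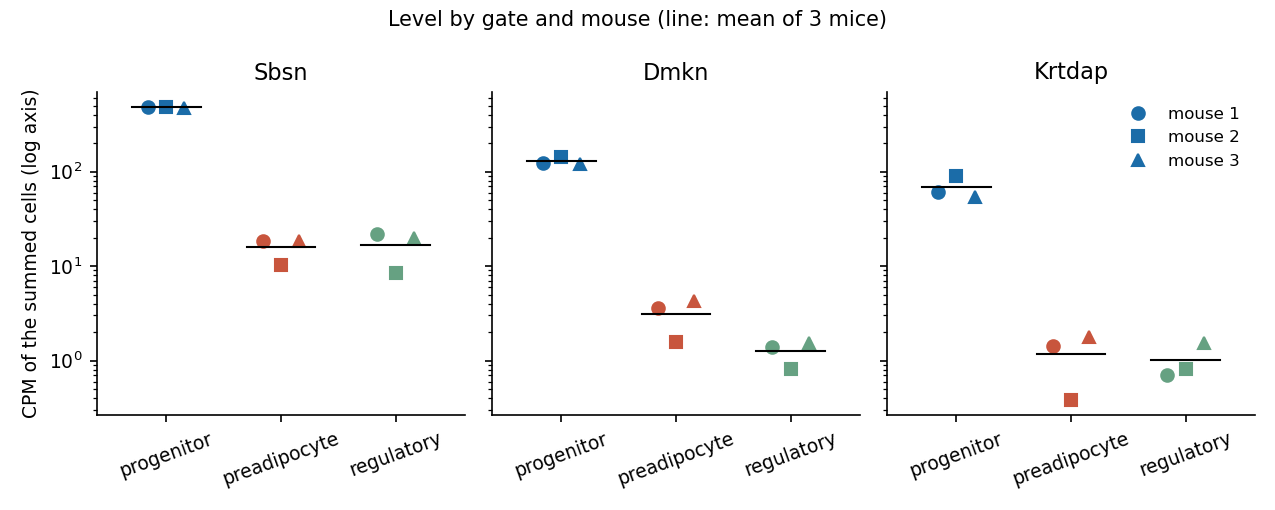
CPM of each member (log axis) in the summed cells of the progenitor, preadipocyte and regulatory gates, with 1 symbol per mouse and a line at the mean of 3 mice. Every progenitor value lies above every value of the other gates, from 474 to 487 CPM for Sbsn, 121 to 144 CPM for Dmkn and 54.0 to 90.2 CPM for Krtdap.

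The edgeR quasi-likelihood fit with mouse as a block put these differences at log2 fold changes of 5.02 (SE 0.17) for Sbsn, 5.46 (SE 0.18) for Dmkn and 5.95 (SE 0.24) for Krtdap, progenitor over preadipocyte. By size of fold they ranked 53rd, 32nd and 9th of 13264 genes tested. All 3 passed an adjusted p of 0.05 in that direction, as did 29.2% of all genes tested, and since the members were chosen with these cells in view the count is a description only. Without mouse 2 the log2 fold changes were 4.73, 5.03 and 5.24.

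The regulatory cells, counted without cells that met 2 gates, held almost no transcript of 2 of the members. The regulatory gate sets no limit on Pi16, so a cell could also meet the progenitor gate and then be left out. Dmkn gave 2, 3 and 3 UMIs and Krtdap 1, 3 and 3 UMIs in the regulatory cells of mice 1, 2 and 3. Sbsn gave 31, 31 and 38 UMIs, or 21.8, 8.38 and 19.6 CPM (mean 16.6 ± 7.19). With counts this low, Dmkn is best given as a ratio with its exact 95% counting interval. The progenitor CPM was 88.6 times the regulatory CPM in mouse 1 (24.5 to 732), 178 times in mouse 2 (60.7 to 861) and 78.2 times in mouse 3 (26.7 to 379). For Krtdap the ratios were 85.8 (15.4 to 3391), 111 (38.0 to 539) and 34.8 (11.9 to 169). Sbsn carried enough counts for a narrower estimate, and its progenitor level was 22.0, 58.0 and 24.2 times the regulatory level. All 3 members passed the adjusted p of 0.05 for progenitor over regulatory, where 24.0% of all genes tested did, again with no weight as a test.

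Between the 2 low gates no member's difference passed the adjusted p of 0.05. Regulatory over preadipocyte, the log2 fold change was -1.39 (SE 0.72, edgeR adjusted p = 0.193) for Dmkn, -0.24 (SE 0.99, adjusted p = 0.906) for Krtdap and -0.00 (SE 0.29, adjusted p = 0.998) for Sbsn, and 0 of 3 members passed while 25.7% of all genes tested did (0 of 3 also at an unadjusted p of 0.05, and 0 of 3 by DESeq2). The intervals were wide for Dmkn and Krtdap, at 8 and 7 UMIs over all regulatory cells, and a difference of several fold was not detectable at this depth. Dmkn alone crossed the threshold in 1 alternative, at an adjusted p of 0.00922 when genes with low counts were not filtered out, against 0.193 in the fit above. The order of levels was therefore progenitor first, with preadipocyte and regulatory cells not separated.

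Of the UMIs of each member over all kept cells, 90.1 to 93.6% lay in the progenitor gate, which held 49.4 to 61.1% of the cells. The gate markers themselves, which define that gate, had 85.9 to 88.9% (Dpp4) and 87.8 to 89.7% (Pi16) of their UMIs there. The residual level in preadipocytes was 3.31 ± 1.03% of the progenitor level for Sbsn, 2.50 ± 1.26% for Dmkn and 2.02 ± 1.45% for Krtdap. For Pi16, which the preadipocyte gate leaves free, it was 2.79 ± 1.30%. The members and Pi16 thus kept about the same small share of their progenitor level in preadipocytes, and the part of free RNA or of doublets in that residue was not tested.

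Depth differs between cells and between mice, so shares of cells with a transcript were taken after thinning each cell to 3000 UMIs, which left out 1436 of 19841 progenitor cells, 161 of 5561 preadipocytes and 212 of 1058 regulatory cells. At that depth Sbsn was detected in 45.3, 46.9 and 44.5% of progenitor cells (mean 45.6 ± 1.23), Dmkn in 17.1, 17.2 and 14.7% (mean 16.3 ± 1.42) and Krtdap in 11.5, 13.7 and 9.53% (mean 11.6 ± 2.08). Unthinned, the shares were 59.4, 23.1 and 17.6%, so a cell without a UMI at 3000 UMIs need not lack the transcript. In preadipocytes the thinned shares were 4.24, 2.43 and 4.78% for Sbsn, 0.811, 0.883 and 1.21% for Dmkn and 0.541, 0.147 and 0.329% for Krtdap, or 10.8, 2.39 and 0.841% on average unthinned. In regulatory cells they were 7.66, 3.80 and 4.41% for Sbsn, while Dmkn was found in 4 and Krtdap in 1 of 846 cells. Residual endothelial cells, which should lack all 3 genes and were picked by their own markers whatever gate they met, had Sbsn in 3, Dmkn in 1 and Krtdap in 0 of 32 cells at 3000 UMIs, which for Krtdap allows a share of up to 9.38% of cells with a UMI. Their unthinned medians were 1999 to 5295.5 UMIs against 7296 to 12977 in preadipocytes. In their unthinned sums Sbsn stood at 87.3, 39.0 and 31.9 CPM in mice 1, 2 and 3, on 15, 5 and 1 UMIs. That lay above the preadipocyte level of 18.5, 10.3 and 18.6 CPM in each mouse. Dmkn gave 1 UMI and Krtdap 0 over all endothelial cells. A sample of 32 cells is too small to set a background for shares of a few percent, and the part of free RNA in the preadipocyte and regulatory shares was not tested.

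**Figure D2:**
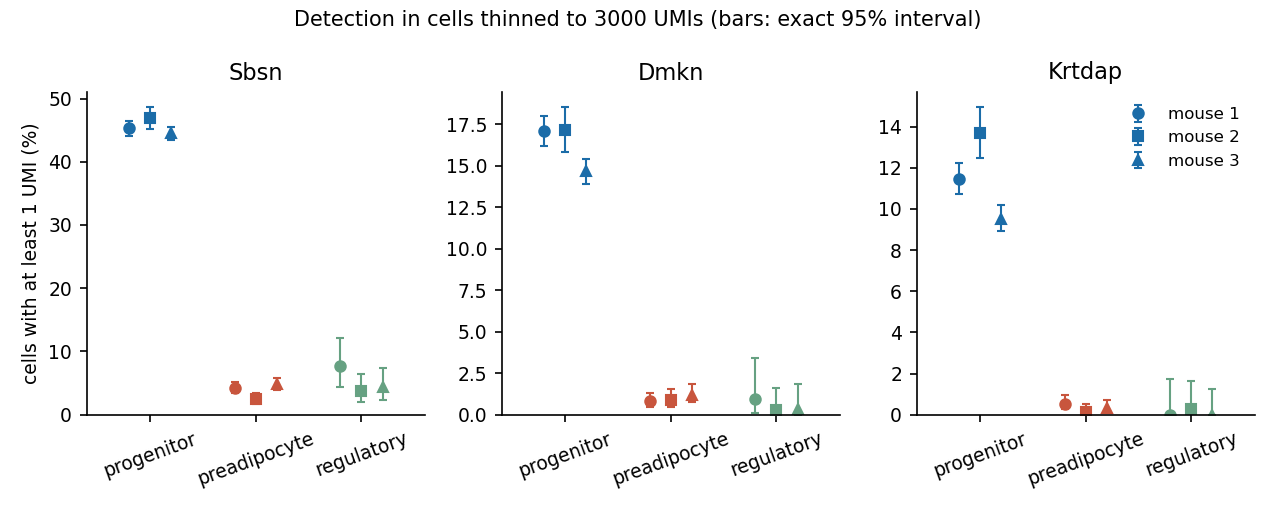
Percentage of cells with at least 1 UMI of each member after thinning every cell to 3000 UMIs, by gate and mouse, with exact (Clopper-Pearson) 95% intervals that cover counting error only. Progenitor shares are 44.5 to 46.9% for Sbsn, 14.7 to 17.2% for Dmkn and 9.53 to 13.7% for Krtdap, and the highest share elsewhere is 7.66%.

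Within the progenitor gate the UMIs were concentrated in part of the cells. The 10% of cells with most UMIs held 50.8, 49.8 and 52.6% of all Sbsn UMIs and 81.6, 84.3 and 86.9% of all Dmkn UMIs in mice 1, 2 and 3, and 92.3 and 86.8% of all Krtdap UMIs in mice 1 and 2. In mouse 3 they held every Krtdap UMI, since only 9.53% of its cells had one. These shares are largely set by the shares of cells detected, which were 16.3% for Dmkn and 11.6% for Krtdap, and they are therefore not set against those of widely detected genes. The variance of UMIs over cells was 4.11 times the mean for Sbsn, 3.77 times for Dmkn and 2.54 times for Krtdap, at means of 1.47, 0.399 and 0.213 UMIs a cell. Among 7 other genes it ran from 1.31 times (Dpp4, 2.32 UMIs a cell) and 2.69 times (Cd55, 2.42 UMIs a cell) to 5.31 times (Pi16, 11.4 UMIs a cell) and 6.46 times (Col1a1, 15.2 UMIs a cell). Only Pi16 and Col1a1 exceeded Sbsn, at far higher means. Sema3c, nearest to Sbsn in mean at 1.92 UMIs a cell, stood at 1.51 times. The ratio can rise with the mean, and all 7 genes had higher means than the members, so none is a match for Dmkn or Krtdap. Single thinned cells reached 22 UMIs of Sbsn, 21 of Dmkn and 12 of Krtdap.

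The cells that carried one member tended to carry the others. All 3 were found together in 416 of 6829, 224 of 3106 and 456 of 8470 thinned progenitor cells (6.09, 7.21 and 5.38%), where the product of the 3 separate shares gives 60.6, 34.2 and 52.7 cells. A further 13.8, 14.1 and 11.1% had 2 of the 3, and 52.1, 50.7 and 53.2% had none. Of preadipocytes 1 of 5400, and of regulatory cells 0 of 846, held all 3. Of progenitor cells with Krtdap, 91.6 ± 0.95% also had Sbsn, against 39.5 ± 0.18% of those without Krtdap. Of cells with Dmkn, 89.6 ± 1.09% also had Sbsn, against 37.0 ± 0.78% of those without. Dmkn was found in 55.9 ± 1.64% of cells with Krtdap and in 11.2 ± 0.97% of the rest. Seen from the abundant partner, 32.1 ± 2.27% of cells with Sbsn had Dmkn and 23.2 ± 3.79% had Krtdap, against 3.11 ± 0.37% and 1.76 ± 0.18% of cells without Sbsn. Krtdap and Dmkn were thus rare in cells without a Sbsn UMI, while Sbsn was common in cells without Krtdap and in cells without Dmkn. Sbsn was also the more abundant transcript, at 1.47 UMIs a cell against 0.399 for Dmkn and 0.213 for Krtdap. The part of abundance in this asymmetry was not tested.

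The association was graded. Dmkn was detected in 3.11% of progenitor cells with 0 Sbsn UMIs, in 11.9% with 1, in 26.7% with 2 to 3, in 52.2% with 4 to 7 and in 76.2% with 8 or more (means of 3 mice). Krtdap went over the same steps from 1.76% to 8.92, 19.8, 36.7 and 54.8%. The order of the 5 steps was the same in each mouse for both genes, and the top step held 722 of 18405 cells. All cells were counted at 3000 UMIs, and their depth before thinning was not compared between the steps.

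**Figure D3:**
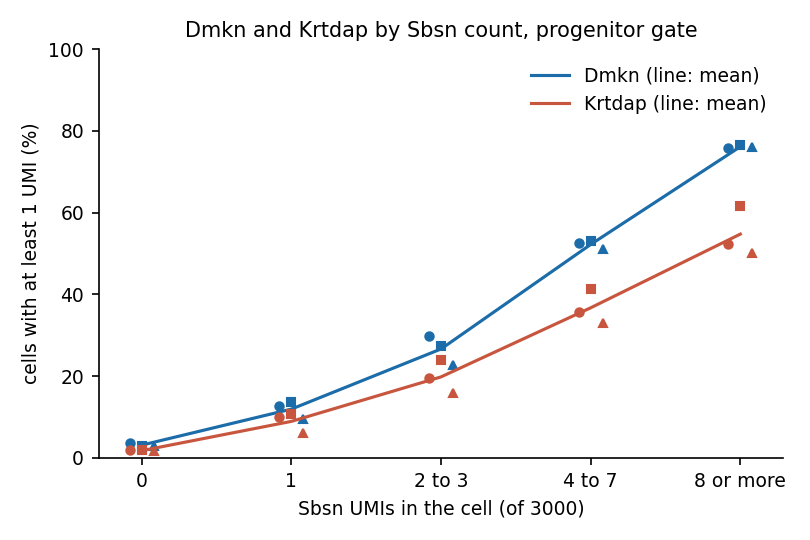
Percentage of progenitor cells with at least 1 UMI of Dmkn or Krtdap by the number of Sbsn UMIs in the same cell, all cells thinned to 3000 UMIs, with 1 symbol per mouse and a line through the means. Dmkn goes from 3.11 to 76.2% and Krtdap from 1.76 to 54.8% between 0 and 8 or more Sbsn UMIs.

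As log2 odds ratios, the 3 pairs stood at 4.06 ± 0.17 (Krtdap and Sbsn), 3.87 ± 0.12 (Dmkn and Sbsn) and 3.34 ± 0.22 (Dmkn and Krtdap; SD over 3 mice). Every value of every mouse lay between 3.20 and 4.25. Of progenitor genes that the gate does not use, Cd55, a complement regulator, paired with the members at 1.15 to 1.44, Sema3c at 1.10 to 1.66 and Anxa3, an annexin, at 1.49 to 1.87. With the gate marker Dpp4 the members paired at 0.32 to 0.44, a value taken inside a gate that selects on the sum of Dpp4 and Pi16. With Pi16 the values were higher and less even, at 2.57 ± 0.55 for Sbsn, 2.39 ± 0.16 for Dmkn and 3.61 ± 1.11 for Krtdap, and these rest on the 3.56% of progenitor cells in which Pi16 was not detected. The pairs among members thus exceeded those with Cd55, Sema3c and Anxa3 in each of the 3 mice. These genes are no match for the members in detection. Cd55 and Sema3c were not detected in 25.58 and 23.02% of progenitor cells, against 54.44% for Sbsn, 83.69% for Dmkn and 88.44% for Krtdap. No gene detected in as few cells as the members was paired with them. Whether pairs this strong are particular to the members was therefore not tested. Pairs with Anxa3 rest on the 4.39% of progenitor cells in which it was not detected. Krtdap with Pi16 stood at 4.61, 3.80 and 2.41 in mice 1, 2 and 3. Dmkn with Krtdap, at 3.20, 3.23 and 3.59, was lower than that in mice 1 and 2 and higher in mouse 3. No p is given, since cells of 1 mouse share their library and the members were chosen as genes that go together in these cells.

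**Figure D4:**
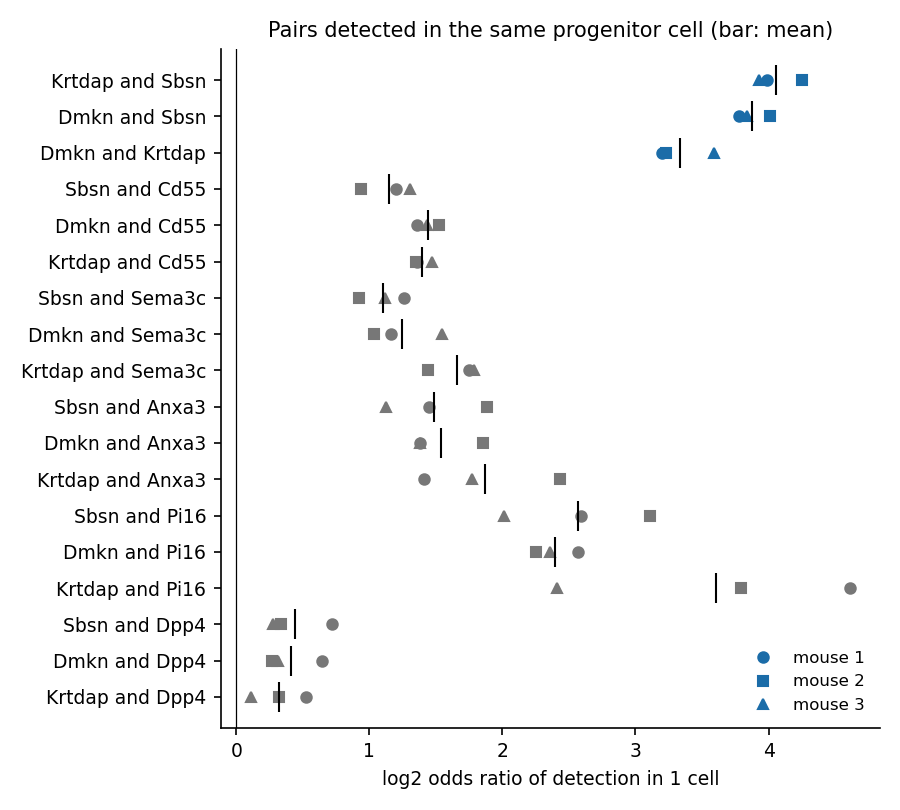
Log2 odds ratio of detecting both genes of a pair in the same progenitor cell, cells thinned to 3000 UMIs, with 1 symbol per mouse and a bar at the mean. The 3 pairs among the members lie between 3.20 and 4.25, and pairs of a member with Cd55, Sema3c or Anxa3 lie at 1.10 to 1.87 on average. Pairs with the gate markers Pi16 and Dpp4 are drawn below them.

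Pi16 and Dpp4, which together define the gate, related differently to the members. In progenitor cells with at least 3 Dpp4 UMIs and none of Pi16 (84, 37 and 75 cells), Sbsn stood at 52.8, 22.6 and 26.9 CPM and Dmkn at 5.65 to 8.28 CPM, while Krtdap gave 0, 1 and 1 UMIs. In cells with at least 3 Pi16 UMIs and none of Dpp4 (168, 96 and 251 cells), Sbsn stood at 247, 369 and 345 CPM, Dmkn at 36.4 to 84.2 CPM and Krtdap at 33.2 to 72.7 CPM. In cells with both markers the means were 487 ± 7.62 CPM for Sbsn, 133 ± 13.6 for Dmkn and 69.2 ± 19.8 for Krtdap. In every mouse and for each member, cells with only Dpp4 lay below cells with only Pi16. The groups of single-marker cells are small, and Dmkn in the Dpp4-only cells rests on 3 or 4 UMIs a mouse. Pi16 was also the more abundant marker, at a mean of 3708 CPM in progenitors against 776 CPM for Dpp4. A count of 0 therefore says less about the absence of Dpp4 than of Pi16. The part of undetected Dpp4 in the difference was not tested.

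The balance among the members was similar in the mice. In progenitors Sbsn had 3.85, 3.38 and 3.92 UMIs per UMI of Dmkn, and Krtdap had 0.484, 0.626 and 0.445. In preadipocytes the ratios were 5.17, 6.48 and 4.36 for Sbsn and 0.394, 0.241 and 0.414 for Krtdap. The ratio of Sbsn to Dmkn was higher in preadipocytes in 3 of 3 mice, by 0.51 ± 0.40 on the log2 scale (exact two-sided sign-flip permutation p of 0.25, the smallest that 3 mice allow), over few preadipocyte UMIs whose part from free RNA was not tested. In regulatory cells the ratios rest on 2 or 3 Dmkn UMIs a mouse and are not compared.

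The neighbouring genes did not share the pattern. Within 250 kb on either side of the cluster 49 other genes are annotated, 39 of them were in the count files and 17 had enough counts to be tested. Of the 17, 2 were higher and 1 was lower in progenitors than in preadipocytes, with a median log2 fold change of -0.05 and a range from -1.84 to 1.72, while 56.4% of all genes tested passed in either direction. The closest tested neighbours were the antisense transcript Gm26935, 3.0 kb away, at 0.07 (SE 0.34, edgeR adjusted p = 0.872), and Tmem147, which encodes a membrane protein of the endoplasmic reticulum, 21.9 kb away, at -0.10 (SE 0.07, adjusted p = 0.232). Usf2, which encodes an E-box transcription factor and is the first tested gene on the Krtdap side, 154.2 kb away, was at 0.02 (SE 0.06, adjusted p = 0.746). The 3 genes that passed lay farther out. Arhgap33, a GTPase-activating protein, was higher in progenitors at 1.72 (SE 0.29, adjusted p = 0.000271), at 2.05 against 0.652 CPM. Fxyd5, a regulator of the sodium pump, was lower at -1.84 (SE 0.12, adjusted p = 4.99e-08), at 14.6 against 53.6 CPM. Haus5, a subunit of the augmin complex, was higher at 0.60 (SE 0.21, adjusted p = 0.0305), a call that was lost without mouse 2 (log2 fold change 0.27) or mouse 3 (0.74), with DESeq2 (0.59), without the block (0.63), with stricter gates (0.56) and with gates on thinned cells (0.10). The free fatty acid receptor genes Ffar1, Ffar2 and Ffar3, which lie nearest to Krtdap at 27.3 to 66.3 kb, gave at most 4 UMIs in any gate. Sbsn shares annotated exons with a same-strand transcript of Tmem147os, and reads there cannot be told apart. That transcript's entry was not in the count files. The Tmem147os entry that was in the files ends 5.5 kb before the cluster. Its 45 UMIs in progenitors, against 73684 of Sbsn, do not cover the shared exons.

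**Figure D5:**
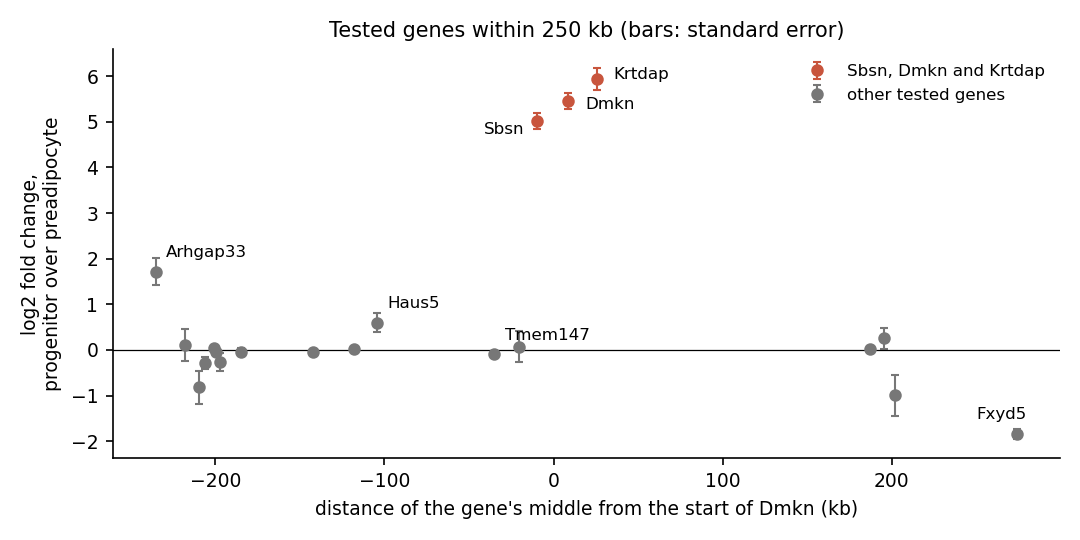
Log2 fold change, progenitor over preadipocyte, of the 3 members and the 17 other tested genes within 250 kb, by the distance of each gene's middle from the start of Dmkn, with standard errors from edgeR. The members lie at 5.02 to 5.95 and the other genes between -1.84 and 1.72.

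Of the keratinocyte and barrier markers listed, Krt10 stood at 28.4 CPM in progenitors and the others at 1.60 CPM (Sfn) or less. Of 16 keratinocyte markers, Krt5 and Dsg3 were at 0 UMIs in all 3 gates and Krt14, a basal keratin, had 8 UMIs in all progenitors. The summed level of the 16 was 29.2 to 34.2 CPM in progenitors and 32.4 to 36.7 CPM in preadipocytes, and Krt10, at 28.4 and 32.0 CPM, made up most of it. Only 3 of the 16 had enough counts to be tested, and 0 of these 3 passed between progenitors and preadipocytes by edgeR, 0 of 3 at an unadjusted p of 0.05 and 0 of 7 by DESeq2. Of 17 cornified envelope and barrier genes in the files, Flg, Ivl, Casp14, Sprr1b, Cnfn, Calm4 and Klk7 were at 0 UMIs in every gate. The summed level was 1.10 to 1.67 CPM in progenitors. The rest went either way. Lor (0.525 against 0.280 CPM) and Slurp1 (0.229 against 0 CPM) were higher in progenitors than in preadipocytes. The 2 that were tested passed as lower in progenitors, while 56.4% of all genes tested passed in either direction. Their log2 fold changes were -2.68 (SE 0.41) for Sprr1a and -2.59 (SE 0.79) for Cst6. In the progenitor cells with 2 or 3 members the keratinocyte markers summed to 35.0 ± 6.92 CPM, against 30.4 ± 3.77 CPM in those with none, 319 of the UMIs in the former being of Krt10. The barrier genes had at most 4 UMIs each there (Sprr1a). Mesothelial cells also bear keratins, and some of their listed markers were higher in progenitors too. Of 10 such markers 4 were tested and 2 rose in progenitors against preadipocytes, as did 29.2% of all genes tested. Krt19 rose by a log2 fold change of 1.42 (SE 0.43, edgeR adjusted p = 0.0136) and Krt18 by 1.90 (SE 0.64, adjusted p = 0.0235). Lrrn4, not tested, went the other way, at 1 UMI in progenitors and 21 in preadipocytes. The summed level of the 10 was 5.89 to 17.2 CPM in progenitors, 2.79 to 5.87 CPM in preadipocytes and 0 to 105.9 CPM in regulatory cells, where mouse 3 had the highest value. It was 12.6 to 22.2 CPM in progenitor cells with 2 or 3 members and 3.81 to 13.99 CPM in those with none. Krt19 gave 1467 UMIs in progenitors, whereas Msln, which encodes mesothelin, gave 1 and Wt1, a mesothelial transcription factor, gave 4. Their part in the members' levels was not tested.

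Lists of adipose stromal genes were set beside the members. All 20 of 20 interstitial progenitor genes rose in progenitors against preadipocytes, as did 29.2% of all genes tested, with a median log2 fold change of 3.92 beside -0.00 over all genes. The gate genes Dpp4 and Pi16 are on that list, which was drawn up with these data known, so the count is no independent evidence. As examples, Uchl1, a neuronal-type ubiquitin hydrolase, was at 5.12 (SE 0.10), Sema3c, a secreted guidance factor, at 4.17 (SE 0.13) and Cd55 at 3.11 (SE 0.08). In thinned progenitor cells the summed level of the list was 17240 ± 395 CPM where no member was detected, 19680 ± 807 CPM with 1 member and 21720 ± 936 CPM with 2 or 3. The preadipocyte list, which includes Pparg and Lpl, ran the other way, at 1495 ± 314, 984 ± 152 and 698 ± 96.0 CPM. The regulatory list, which includes F3 and Gdf10, ran the same way as the preadipocyte list, at 861 ± 137, 524 ± 30.5 and 345 ± 13.2 CPM. Mural markers, the genes of pericytes and smooth muscle, were also lower with more members, at 34.6 ± 8.26, 21.9 ± 3.63 and 13.6 ± 0.81 CPM. For these 4 lists the values of mice did not overlap between cells with none and cells with 2 or 3 members. The same held for Schwann cell markers (4.51 to 8.06 against 1.91 to 3.69 CPM), while the values of the remaining lists overlapped. The Schwann cell values lie near the floor. In cells with 2 or 3 members, 3, 4 and 3 of the 6 genes had no UMI in mice 1, 2 and 3. The share of all genes that separate this way was not taken, and the lists were chosen with these data known. The separation is therefore a description only. Pan-mesenchymal genes summed to 28993, 36628 and 30355 CPM in cells with none and to 24629, 29573 and 24585 CPM in cells with 2 or 3 members of mice 1, 2 and 3, lower in each mouse. Immediate early and dissociation genes summed to 19325, 17519 and 15983 CPM in cells with none and to 16014, 16186 and 13015 CPM in cells with 2 or 3 members, also lower in each mouse. The part of these lists in the members' distribution was not tested.

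The genes most like the members were sought among 8007 genes detected in at least 2% of thinned progenitor cells of each mouse, by the correlation over cells of a gene's detection with the number of members detected in the same cell. The median correlation over all 8007 genes was 0.01. The highest, ordered by the lowest of the 3 mice, were Ptgs1 (mean r 0.27), which encodes cyclooxygenase-1, Il34 (0.26), a ligand of the CSF1 receptor, Itgb7 (0.27), an integrin beta chain, and Bmp3 (0.24), a BMP family ligand. After them came Uchl1 (0.24), Igfbp5 (0.22), an IGF-binding protein, Pcsk6 (0.20), a proprotein convertase, Olfml2a (0.21) and Tmeff1 (0.19). Several of these were detected in few cells, with Il34 in 3.22 to 3.52% and Ptgs1 in 7.47 to 9.83% of progenitor cells at 3000 UMIs. For these genes a low level and restriction to few cells were not told apart. The lowest were Ccdc80 (-0.28), a matrix protein, Inmt (-0.27), a methyltransferase, Igfbp7 (-0.26), Pcolce (-0.26), a procollagen processing enhancer, and Gpx3 (-0.23), a secreted glutathione peroxidase. These correlations are over cells that share a library and a fixed depth of 3000 UMIs, and they carry no p.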

How the data were processed

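CD31- CD45- cells were sorted from the inguinal SVF of 3 mice and sequenced with 10x Genomics 3′ libraries. The authors deposited 1 table of raw UMI counts per mouse, not normalized, made with Cell Ranger against the mm10 build (version 2.1.1 in the submitters' processing notes, while the count files' own headers name another). Strand, counting of shared exons and ambient RNA were not adjusted here, and no doublet caller was run. Cells in more than 1 gate (49, 119 and 96) were left out. UMIs were summed by gate and mouse (9 sums, 1424350 to 61731570 UMIs each), filtered with filterByExpr, scaled by TMM and tested in edgeR 4.0.16 with quasi-likelihood F tests, Benjamini-Hochberg adjustment over 13264 genes, all gates in 1 fit and mouse as a block, since the gates come from the same animals. No design or filter for these sums is given in the study's methods beyond its limits on genes and mitochondrial UMIs. In simulated counts with 200 changed genes, 198 were recovered with 7 false calls in the progenitor against preadipocyte comparison (13235 genes). The changed genes were all above a level floor, at an assumed spread, and far fewer than the 7477 that passed in the data. Recovery at counts as low as the members' in regulatory cells was not tested. Thinning drew 3000 UMIs per cell without replacement with fixed seeds. Odds ratios had 0.5 added to each cell count, intervals are exact (Clopper-Pearson, 95%) and cover counting error only, and a count of 0 is read as allowing up to 3. SD is over mice. Named genes were the 3 members, the gate genes, genes within 250 kb, genes on the lists, and the 10 most and 5 least like the members, of which 1 is not reported here. The members and lists were chosen with earlier results of these data known. Alternatives were library size or DESeq2 (1.42.0) scaling, the DESeq2 test, no filter, no block, each mouse left out, other gates and other cell filters. Annotation was GENCODE for GRCm38, analysed in Python 3.11.15 and R 4.3.3.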

Additional observations from a re-analysis of the deposited data

Results flagged for a closer look

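Barcodes outside the comparisons, of 2 kinds, also carried the members, above the limit of 3 counts that a count of 0 allows. In cells that met no gate, Sbsn stood at 113.7 ± 21.3 CPM (91.9 to 134 over 3 mice), Dmkn at 27.3 ± 5.05 CPM (24.1 to 33.1) and Krtdap at 14.2 ± 0.88 CPM (13.5 to 15.2). In barcodes left out for few genes or a high mitochondrial share, Sbsn stood at 213.0 ± 69.4 CPM, Dmkn at 64.1 ± 13.8 CPM and Krtdap at 26.2 ± 4.45 CPM. Both lie between the progenitor and the preadipocyte levels of each member.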

How the results depend on the processing

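The members' log2 fold changes of progenitors over preadipocytes and over regulatory cells kept their direction and their call under every alternative run. Over preadipocytes they ran from 4.52 to 5.17 (Sbsn), 4.69 to 5.75 (Dmkn) and 4.94 to 6.40 (Krtdap). All 3 low ends came with gates set on thinned cells, against 5.02, 5.46 and 5.95 in the fit above. Over regulatory cells they ran from 4.52 to 5.24 (Sbsn), 5.98 to 7.10 (Dmkn) and 4.80 to 6.67 (Krtdap). With cells of 2 gates kept in both, the latter fell from 5.02 to 4.56 (Sbsn), 6.84 to 6.36 (Dmkn) and 6.18 to 4.80 (Krtdap). The mouse block is in the fit above because the gates come from the same animals. Without the replicate block fewer genes passed, 4001 instead of 7477 (progenitor against preadipocyte), 1535 instead of 3409 (regulatory against preadipocyte) and 3135 instead of 5699 (progenitor against regulatory), and the block changed no member's call. With gates set on thinned cells 1959 and 3459 genes passed for regulatory against preadipocyte and progenitor against regulatory, and leaving out 1 mouse gave 2057 to 2804 for regulatory against preadipocyte, lowest without mouse 2. Regulatory against preadipocyte, Sbsn turned to 0.0168 with DESeq2 size factors, 0.0741 with DESeq2, 0.0394 without the block, 0.00417 at 10% mitochondrial UMIs, 0.46 with cells of 2 gates kept, 0.13 with stricter gates, 0.15 without the deepest 5% of cells and -0.10 to 0.21 with 1 mouse left out, none past the threshold. Krtdap turned to 1.16 with cells of 2 gates kept and ran from -0.32 to 0.11 with 1 mouse left out. The cause of these changes was not tested. The count of flanking genes that passed went from 3 to 5 at 10% mitochondrial UMIs (progenitor against preadipocyte). It went from 2 to 0 without the block, 1 with stricter gates, 1 on thinned cells and 0 to 1 with 1 mouse left out (regulatory against preadipocyte), and from 4 to 2 without a filter, 1 without the block, 2 on thinned cells and 2 to 3 with 1 mouse left out (progenitor against regulatory). At 2000 and 5000 UMIs the progenitor shares were 39.4 and 53.3% (Sbsn), 13.5 and 19.9% (Dmkn), 8.76 and 14.8% (Krtdap) and 4.00 and 9.08% (all 3), and the log2 odds ratios with Sbsn were 3.50 and 4.12 (Dmkn) and 3.54 and 4.42 (Krtdap). Thinning sets these by construction. Under the other alternatives the progenitor shares and odds ratios moved by less than 1 SD, and 9 of the 10 most similar genes were the same at 5000 UMIs. Leaving out 1 mouse cannot move a mean of 3 mice by 1 of their SDs, so that setting shows nothing on this point. The 1 to 38 member UMIs per mouse in regulatory cells limit what can be said there.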

Other observations

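The cells in no gate split by their marker UMIs. Those with Dpp4 plus Pi16 of at least 3, kept out of the progenitor gate by 2 or more UMIs of Icam1 plus Fabp4, held Sbsn at 234, 181 and 226 CPM, with means of 52.7 ± 4.66 CPM for Dmkn and 27.6 ± 1.33 CPM for Krtdap. Those with 1 or 2 UMIs of Dpp4 plus Pi16 stood at 19.4 ± 8.26, 2.77 ± 0.61 and 1.50 ± 0.99 CPM for Sbsn, Dmkn and Krtdap. Those with none stood at 14.3 ± 5.19, 2.22 ± 1.50 and 1.05 ± 0.49 CPM. Outside the gate as well, each member was thus highest where Dpp4 plus Pi16 reached 3, in cells that also differed in Icam1 plus Fabp4. Between cells with 1 or 2 UMIs of Dpp4 plus Pi16 and cells with none, the values of mice overlapped for each member. In cells of no gate the sum of Dpp4 and Pi16 was mostly Pi16 (65265 UMIs against 16689 of Dpp4), and the 2 genes were not taken apart there. Cells with both kinds of marker held less than progenitors. The part of doublets in this was not tested.

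In single cells without thinning, the highest counts were 77 Sbsn UMIs and 46 Krtdap UMIs in progenitors of mouse 2 and 60 Dmkn UMIs in a progenitor of mouse 3. Among preadipocytes the highest were 25 UMIs of Sbsn, 6 of Dmkn and 3 of Krtdap, and among regulatory cells 3, 1 and 2.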
